A study of Mus musculus with 9 samples.

Results

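*Slc5a6* and 9 other genes of biotin and thiamine handling were followed across the striatum of *Shank3B* mutant mice. The members were taken by gene symbol from the deposited table, and these 10 of its 15464 genes were *Slc5a6*, *Btd*, *Hlcs*, *Pcca*, *Pccb*, *Mccc1*, *Pcx*, *Acaca*, *Slc19a2* and *Slc19a3*. All 10 were among the 14239 genes tested, which had at least 10 normalised counts in at least 3 libraries. *Slc5a6* was chosen by its lower level in heterozygous than in wild-type libraries, so its values in every comparison are given as a description, with no test. The other 9 genes were named for their part in biotin and thiamine handling and not by a threshold on their own values, although earlier results of these libraries were known when they were chosen. The question asked of them was whether they differed where *Slc5a6* was low.

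RNA was sequenced from the striatum, a forebrain region rich in medium spiny neurons, of adult male mice on a C57BL/6J background aged 10 to 12 weeks. The *Shank3B* line has a targeted stretch of *Shank3* exons in the germline. Wild-type (WT) mice had no mutated copy, heterozygous (HET) mice carried 1 mutated and 1 normal copy, and knock-out (KO) mice had no normal copy. The WT mice were littermates, no mouse received a treatment, and each genotype had 3 mice with 1 library per mouse.

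Biotin is a water-soluble vitamin that is covalently attached to a small family of carboxylases. The protein of *Slc5a6*, the sodium-dependent multivitamin transporter SMVT, brings biotin, pantothenate and lipoate into cells and across the blood-brain barrier. Holocarboxylase synthetase (*Hlcs*) fixes biotin to the carboxylases, which then act in propionate and leucine breakdown, in refilling of the citric acid cycle and in fatty acid synthesis, and biotinidase (*Btd*) frees the vitamin from degraded carboxylases for reuse. Thiamine enters cells through *Slc19a2* and *Slc19a3*, and loss of the latter in people causes a disease of the basal ganglia that responds to biotin and thiamine.

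*Slc5a6* (ENSMUSG00000006641) spans 31036036 to 31048924 on chromosome 5 in GRCm38 and is read from the minus strand, and its longest principal transcript has 18 exons. Its 5′ end overlaps the 5′ end of *Atraid*, on the opposite strand, over 613 bp (31048312 to 31048924). The library kit kept strand, but the strand setting of the counting was not given in the sources used here, so reads of the shared stretch may have been split between both genes. RefSeq promoter windows, 250 bases before to 50 after a start site, were found for 10 of 10 members, and both windows of *Slc5a6* are shown because its level sets it apart from the other members and because of the overlap with *Atraid*. They are written 5′ to 3′ on the minus strand of GRCm38.p6, with matches to 4 motifs in capitals: GGGCGG (the GC box), CCAAT (the CCAAT box), CACGTG (an E-box) and TATAAA (the TATA box), each searched on both strands.
*Slc5a6*, upstream window, chr5:31048513-31048812: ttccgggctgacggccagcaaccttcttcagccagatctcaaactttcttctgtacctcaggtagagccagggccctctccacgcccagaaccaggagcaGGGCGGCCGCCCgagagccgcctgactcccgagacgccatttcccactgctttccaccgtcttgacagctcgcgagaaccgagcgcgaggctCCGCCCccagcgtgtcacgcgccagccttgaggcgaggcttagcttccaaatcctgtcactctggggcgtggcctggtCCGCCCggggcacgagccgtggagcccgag
*Slc5a6*, downstream window, chr5:31048030-31048329: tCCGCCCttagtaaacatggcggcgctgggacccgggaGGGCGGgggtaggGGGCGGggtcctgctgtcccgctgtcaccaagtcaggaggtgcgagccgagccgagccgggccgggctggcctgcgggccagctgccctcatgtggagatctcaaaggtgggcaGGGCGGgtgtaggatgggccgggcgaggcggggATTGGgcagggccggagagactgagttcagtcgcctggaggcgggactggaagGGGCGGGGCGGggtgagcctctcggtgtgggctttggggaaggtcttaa

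The upstream window had a GC content of 66.0% and held 4 GC-box matches, at positions -150, -144, -58 and 21 from the start site. It shared 177 bp with the *Atraid* window (chr5:31048390-31048689), which held 2 GC-box matches. These are the same bases as the matches at -58 and 21, read on the opposite strand, and not further sites. The downstream window had a GC content of 70.3%, 6 GC-box matches, of which those at 2 and 7 overlap each other, and 1 CCAAT match at -52. No E-box or TATA-box letters were found in either *Slc5a6* window. Among 32851 windows of 300 bases, 35.7% held a GC box, 37.4% a CCAAT box, 7.15% the E-box and 13.6% the TATA box, with a median GC content of 52.7%. These matches are descriptions of the letters and not of factor binding.

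The 9 libraries summed to between 30830020 and 33790296 normalised counts, values already divided by library size factors, so the depth in reads and its counting error are unknown. The HET and KO libraries numbered 3 stood apart from the rest on the first principal component (33.6% of the variance), at 33.8 and 34.2 against -17.0 to 1.36, and values without them are given below where they moved a result by over 1.5 times. Defining markers of the striatum were present in every library, with the sum over 11 medium spiny neuron markers (among them *Drd1*, *Drd2* and *Ppp1r1b*) between 74340 and 162100. The total of *Shank3* was 6043 to 8812 in WT, 7098 to 8050 in HET and 10240 to 10800 in KO libraries, which sums exons inside and outside the targeted part and therefore does not check the genotype labels. In bulk tissue, fewer cells of a type and less RNA per cell cannot be told apart.

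The transporter gene *Slc5a6* was lower in every HET library than in any WT or KO library. It stood at 586, 612 and 517 normalised counts in the WT libraries, at 319, 268 and 315 in HET and at 439, 556 and 585 in KO. All 3 HET libraries lay below all 6 others, with a gap of 198 between the highest HET and the lowest WT library, while the WT and KO libraries overlapped. The means were 571 ± 49.0 (SD, n = 3) in WT, 301 ± 28.0 (n = 3) in HET and 526 ± 77.4 (n = 3) in KO, so that HET stood at 52.6% and KO at 92.1% of the WT mean. As a description of the contrast it was chosen on, its log2FC (the difference of mean log2(normalised count + 1) values) was -0.92 in HET relative to WT and 0.80 in KO relative to HET. In KO relative to WT, which uses the same WT libraries, it was -0.13 (95% interval -0.44 to 0.19), and -0.21 without the third HET and KO libraries. The choice rested on those WT libraries too, so this interval is a description and not a test. The HET log2FC ranged from -0.995 to -0.85 when single libraries were left out and was -0.96 without the third HET and KO libraries. The lowest values were thus in the mice with 1 mutated copy, and not in those with no normal copy.

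**Figure D1:**
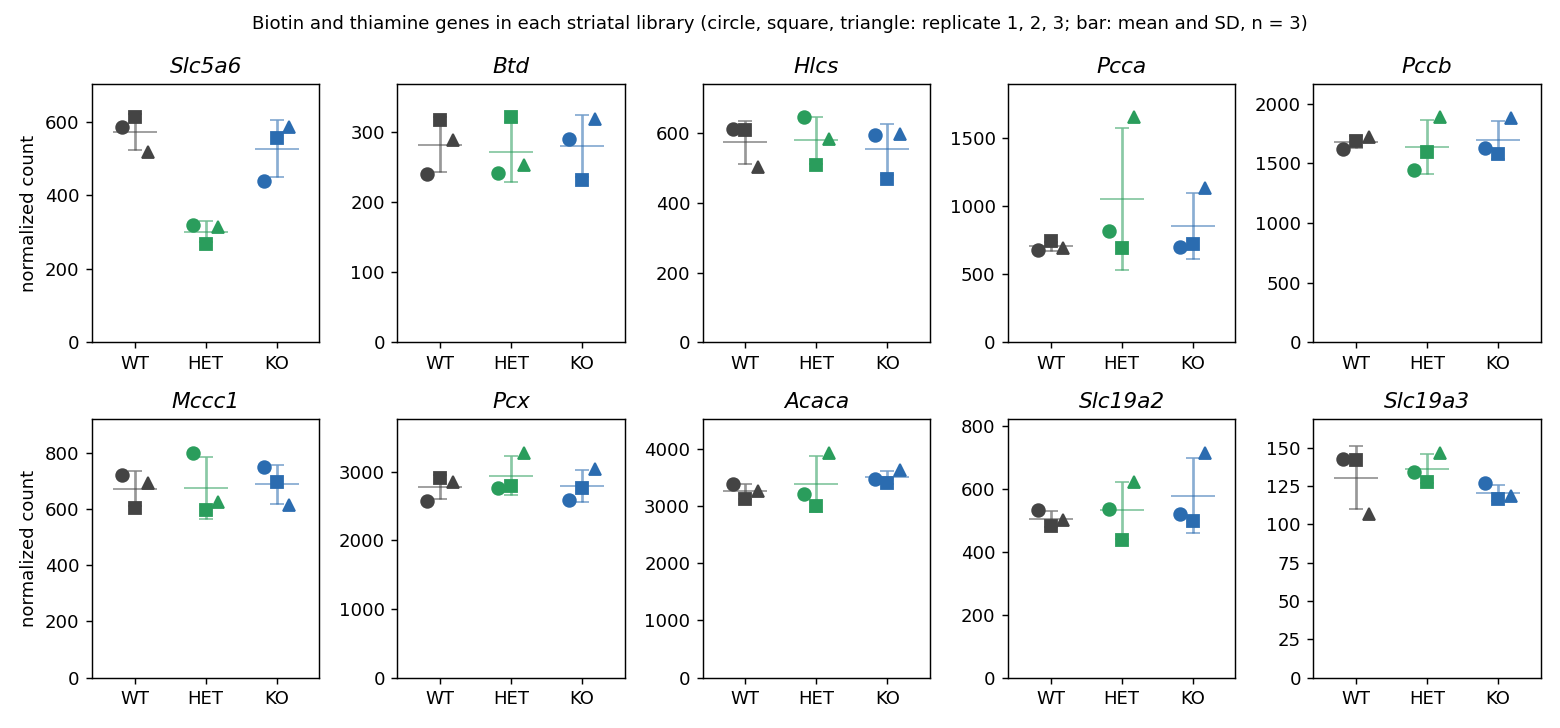
Normalised counts (vertical axes, 1 panel a gene) of the 10 genes in each WT, HET and KO library, with points for single libraries and bars for the group mean and SD (n = 3). The 3 HET points of *Slc5a6* (268 to 319) sit below all others, and the HET points of the other 9 genes overlap those of WT.

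The genes that attach and recycle biotin had no difference past the test. *Btd* stood at 239, 316 and 288 normalised counts in WT, at 241, 320 and 252 in HET and at 290 (289.7), 231 and 317 in KO. The 3 genotypes overlapped throughout, and the means were 281 ± 39.2, 271 ± 43.0 and 279 ± 44.2 (SD, n = 3 each). Its log2FC was -0.056 (95% interval -0.44 to 0.33) in HET and -0.013 (-0.40 to 0.37) in KO relative to WT, with an exact two-sided permutation p of 1 in both. *Hlcs*, the ligase that loads the carboxylases, stood at 613, 608 and 504 in WT, at 646, 509 and 584 in HET and at 595, 469.5 and 598 in KO. The lowest library of each genotype lay between 469.5 and 509 and the ranges overlapped, with a log2FC of 0.011 (-0.30 to 0.33) in HET and -0.057 (-0.37 to 0.26) in KO. With 3 mice against 3, the smallest p that the permutation test can give is 0.1.

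Among the carboxylase genes, *Pcca*, for the biotin-carrying alpha subunit of propionyl-CoA carboxylase, had the largest log2FC of the 9 genes in HET, and it rested on 1 library. It stood at 679.5, 741 and 690.0 normalised counts in WT, at 816, 696 and 1652 in HET and at 703 (702.5), 723 and 1131 in KO. The third HET and KO libraries were the highest, and the other 7 libraries lay between 679.5 and 816. The coefficient of variation was 4.68% in WT, 49.4% in HET and 28.3% in KO. Its log2FC in HET was 0.48 (SE 0.29, 95% interval -0.17 to 1.13, exact permutation p = 0.2, limma with Benjamini-Hochberg adjusted p = 0.999). With the third HET and KO libraries left out it was 0.10, and without the second HET library it was 0.72, with an unadjusted limma p of 0.0354. In KO relative to WT the log2FC was 0.24 (-0.41 to 0.89), and it was 0.020 without the third libraries.

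*Pccb*, for the beta subunit of the same enzyme, had a narrower range than *Pcca*, as counted in these libraries. Its values were 1620, 1691 and 1724 in WT, 1441, 1596 and 1886 in HET and 1629, 1582 and 1879 in KO. The third HET and KO libraries were again the highest, and the log2FC was -0.041 (-0.29 to 0.21) in HET and 0.013 (-0.24 to 0.27) in KO. Leaving those libraries out gave -0.15 in HET and -0.063 in KO. *Mccc1*, for the biotin-carrying subunit of the leucine-pathway methylcrotonyl-CoA carboxylase, stood at 722, 602 and 692 in WT, at 800.4, 596 and 626 in HET and at 751, 695 and 616 in KO. Its groups overlapped almost fully, with means of 672 ± 62.3, 674 ± 110.3 and 688 ± 67.9 (SD, n = 3 each) and a HET log2FC of -0.0033 (-0.31 to 0.30).

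*Pcx*, for the mitochondrial pyruvate carboxylase that refills the citric acid cycle, stood at 2572, 2906 and 2853 in WT, at 2763, 2796 and 3278 in HET and at 2585, 2765 and 3046 in KO. The groups overlapped, and the log2FC was 0.083 (-0.15 to 0.31) in HET and 0.010 (-0.22 to 0.24) in KO. The third HET and KO libraries were its highest, and leaving them out gave 0.0033 in HET and -0.052 in KO. *Acaca*, for the cytosolic acetyl-CoA carboxylase that commits carbon to fatty acid synthesis, stood at 3388, 3116 and 3261 in WT, at 3214, 2998 and 3928 in HET and at 3464, 3406 and 3629 in KO. All 3 KO libraries lay above all 3 WT libraries, and the log2FC was 0.10 (-0.13 to 0.34, exact permutation p = 0.1) in KO and 0.046 (-0.19 to 0.28) in HET. The HET value was -0.067 with the third HET and KO libraries left out.

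The thiamine transporter genes showed no difference past the test in HET. *Slc19a2* stood at 533, 482 and 503 in WT, at 537, 439.6 and 622 in HET and at 522, 499 and 716 in KO. The third HET and KO libraries were its highest, and the log2FC was 0.061 (-0.31 to 0.43) in HET and 0.18 (-0.19 to 0.54) in KO. With these libraries left out it was -0.057 in HET and 0.014 in KO. *Slc19a3* stood at 143, 142 and 107 in WT, at 134, 128 and 147 in HET and at 127, 117 and 118 in KO. Its KO libraries all lay below its HET libraries, with a KO relative to HET log2FC of -0.17 (-0.53 to 0.18, exact permutation p = 0.1), while its HET relative to WT log2FC was 0.072 (-0.29 to 0.43). Leaving out the third HET and KO libraries gave -0.11 and 0.019.

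**Figure D2:**
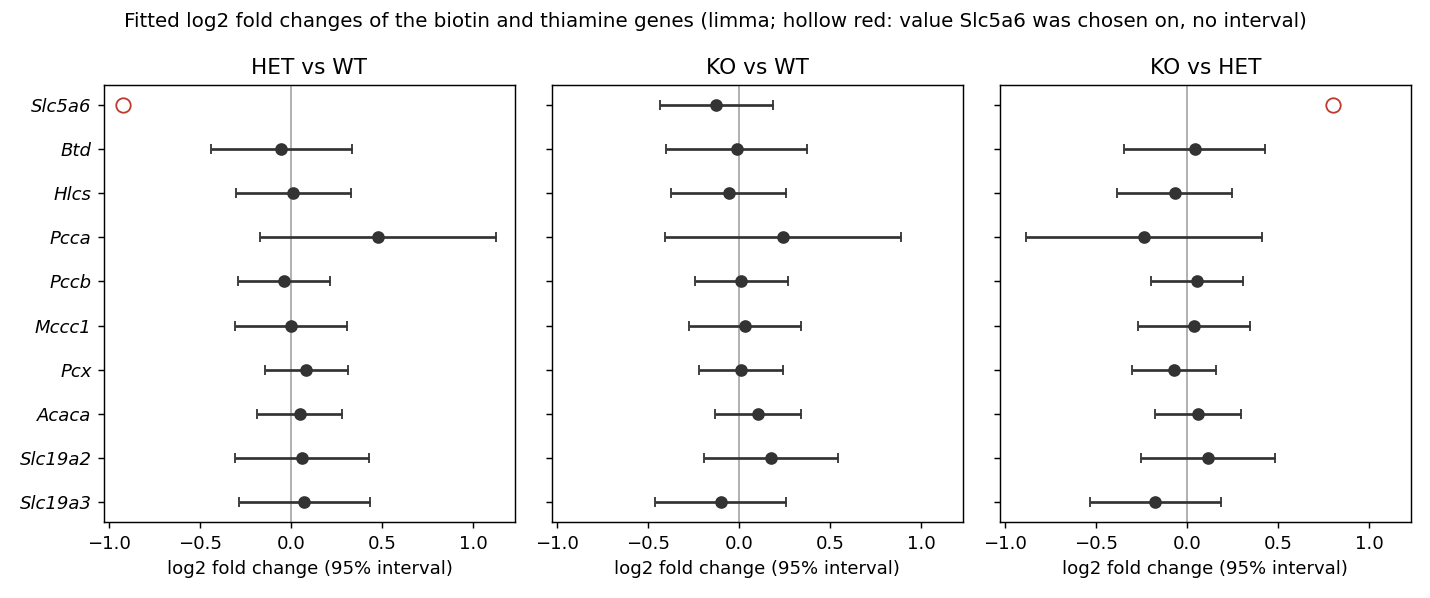
Log2FC (horizontal axes) of each of the 10 genes in HET vs WT, KO vs WT and KO vs HET, with bars for 95% limma intervals. The hollow red points are *Slc5a6* at -0.92 and 0.80 in the comparisons with the HET libraries it was chosen on, drawn without an interval, and every other interval spans 0. The *Slc5a6* interval in KO vs WT shares the WT libraries of that choice and is a description.

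In HET relative to WT, 0 of the 9 genes other than *Slc5a6* passed an adjusted p of 0.05 in limma, where 0% of all genes did. At an unadjusted p under 0.05 the count was 0 of 9 (1.11% of all genes), and 0 of 9 had no overlap between the libraries (4.45% of all genes). In KO relative to WT the counts were 0 of 9 (0%), 0 of 9 (0.822%) and 1 of 9 (4.54%), the last being *Acaca*. Between KO and HET they were 0 of 9 (0%), 0 of 9 (1.31%) and 1 of 9 (4.45%), the last being *Slc19a3*. Across all genes of KO relative to HET, 186 had an unadjusted p under 0.05, and 318 when the replicate number was added as a block, with 0 of the 9 genes among them in either fit.

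Of the 9 genes, 6 had a positive and 3 a negative log2FC in HET, with a median of 0.046 beside -0.0027 over all genes tested. The median size of the log2FC, ignoring sign, was 0.056 for the 9 genes and 0.088 for all genes. The KO relative to WT median was 0.013 (6 positive, 3 negative) beside 0.0047 for all genes, and HET and KO were compared with the same WT libraries. The smallest limma p among the 9 was 0.132 in HET, 0.312 in KO relative to WT and 0.305 in KO relative to HET. The HET intervals of the 9 genes had their lowest bound at -0.44, for *Btd*, and their highest at 1.13, for *Pcca*.

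The third HET and KO libraries were the 2 highest for 5 of the 10 genes, namely *Pcca*, *Pccb*, *Pcx*, *Acaca* and *Slc19a2*, as they were for 19.2% of all genes tested (2733 of 14239). With both left out, the HET log2FC of the 9 genes other than *Slc5a6* lay between -0.15 (*Pccb*) and 0.10 (*Pcca*) and the KO log2FC between -0.12 (*Hlcs*) and 0.11 (*Mccc1*). In that fit 0 of 9 had an unadjusted limma p under 0.05 in any comparison. Of all 14239 genes, 275 did in HET, 219 in KO relative to WT and 227 in KO relative to HET. Among the 9 genes, *Btd* had -0.0094 in HET and -0.11 in KO, *Hlcs* had 0.0019 in HET, and *Mccc1* had 0.044 in HET. Over all 10 genes, *Slc5a6* included, 5 then had a positive and 5 a negative HET log2FC, with a median of -0.0038, where all libraries gave 6, 4 and 0.028. In KO relative to WT these were 4, 6 and -0.058, where all libraries gave 6, 4 and 0.011. In the third HET and KO libraries the summed astrocyte markers were 157700 and 152800, above the 126400 to 150700 of the other 7, and the summed choroid plexus markers were 171 and 169.6, below the 244 to 334 of the others, with *Ttr* at 0 in at least 1 library. The part of cell composition in these values was not tested.

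Per length of transcript, the order of the 10 genes in WT was led by *Pccb*, for the beta subunit of propionyl-CoA carboxylase, and by *Pcx*. In normalised counts per kb of the longest principal transcript, *Pccb* stood at 723 ± 22.9 and *Pcx* at 684 ± 44.2 (SD, n = 3), whose ranges overlapped. *Acaca* followed at 342 ± 14.3, then *Mccc1* at 274 ± 25.4 and *Pcca* at 271 ± 12.7, which overlapped. *Slc5a6* was sixth at 166 ± 14.3 and did not overlap *Slc19a2* at 142 ± 7.17. *Btd* at 121 ± 16.9 overlapped both *Slc19a2* and *Hlcs* at 107 ± 11.5, and *Slc19a3* was lowest at 43.9 ± 6.89. On this scale *Slc5a6* ranged from 78.1 to 92.7 in HET, which put it ninth, below *Hlcs* (94.8 to 120.3 in HET), and in KO it was seventh.

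None of the tested neighbours of *Slc5a6* differed past the test. Apart from *Slc5a6*, the stretch within 100 kb held 9 genes of the table, of which 7 were tested and 0 had a limma p under 0.05 in any comparison (unadjusted). Over all genes tested, 1.11% did in HET, 0.822% in KO relative to WT and 1.31% in KO relative to HET. A count of 0 of 7 therefore says little about the neighbours. *Atraid*, the divergent neighbour that shares 613 bp with it, stood at 877, 974 and 1021 in WT, at 912, 927 and 630.4 in HET and at 961, 1002 and 796 in KO. The third HET and KO libraries were its lowest, and the log2FC was -0.24 (-0.59 to 0.12, exact permutation p = 0.3) in HET and -0.062 (-0.41 to 0.29) in KO. With these libraries left out it was -0.056 (-0.27 to 0.16) in HET and 0.038 (-0.17 to 0.25) in KO. *Cad*, the next gene and the first enzyme complex of pyrimidine synthesis, had a HET log2FC of -0.023 (-0.30 to 0.25). *Cgref1* had -0.25 (-0.56 to 0.068), and *Preb*, *Tcf23*, *Slc30a3* and *Mpv17* lay between -0.075 and 0.096. Without the third HET and KO libraries *Cgref1* had -0.14, *Cad* -0.14, *Slc30a3* 0.0025, *Mpv17* -0.0042 and the low-count *Tcf23* 0.41 (-0.44 to 1.26). *Trim54* and *Ucn* were too low to test, with at most 20.1 and 14.3 normalised counts.

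**Figure D3:**
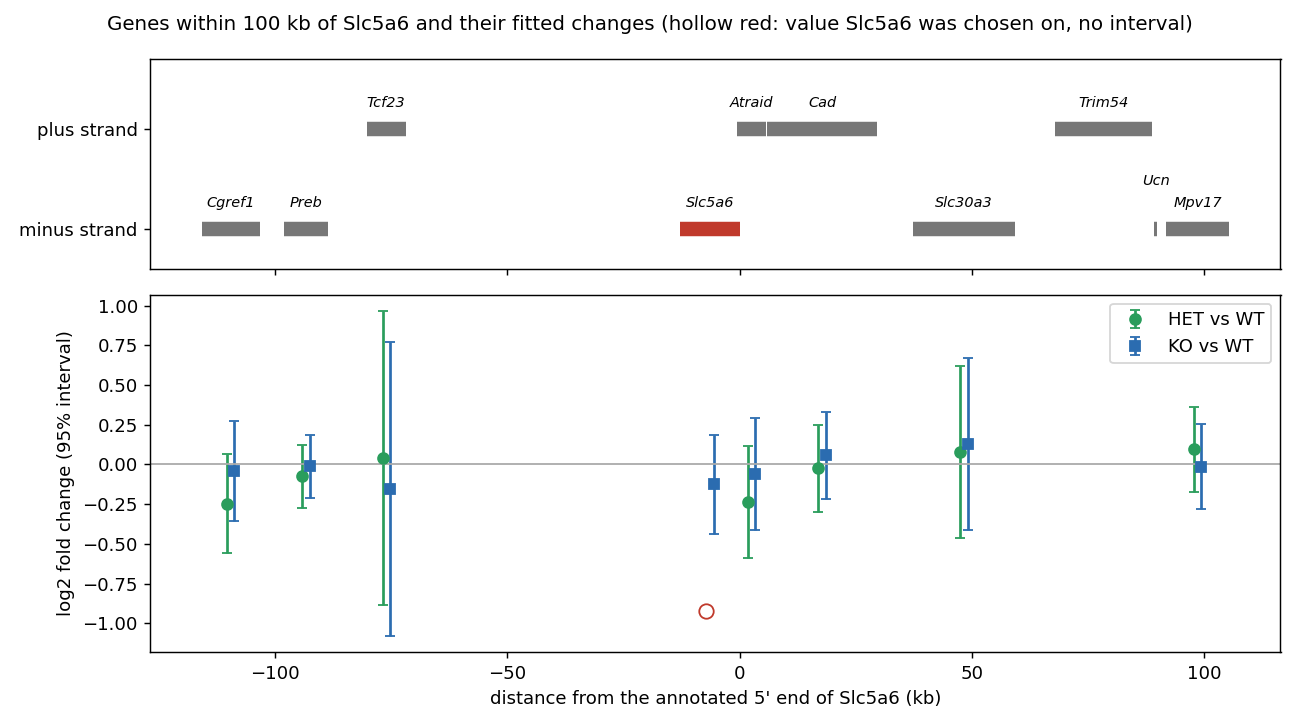
Genes within 100 kb of *Slc5a6* by strand and distance in kb from its annotated 5′ end (top), and their log2FC with 95% limma intervals in HET (green circles) and KO (blue squares) relative to WT (bottom). *Slc5a6* in HET, the hollow red point at -0.92, lies below the others, and the intervals of its 7 tested neighbours span 0. The *Slc5a6* interval in KO shares the WT libraries it was chosen on and is a description.

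The pathways around these genes were read from 8 partly overlapping lists, with 85 genes tested in all besides the members, and 0 of the 85 had a limma p under 0.05 (unadjusted) in any comparison. The smallest p was 0.0752 in HET, 0.054 in KO relative to WT and 0.0786 in KO relative to HET. The remaining carboxylase genes, *Mccc2* (the partner subunit of *Mccc1*) and *Acacb* (the acetyl-CoA carboxylase of the mitochondrial surface), had a HET log2FC of 0.11 (-0.10 to 0.32) and 0.22 (-0.27 to 0.71), the latter falling to 0.040 without the third HET and KO libraries. *Acacb* had the smallest p of the 85 in KO, with 153, 130.4 and 170.3 counts in WT and 162, 250.9 and 229.8 in KO, which overlapped (log2FC 0.48, -0.010 to 0.98). The 24 genes of propionate and branched-chain catabolism had a median HET log2FC of 0.0022 (13 positive, 11 negative), with *Mmachc*, which processes cobalamin, at -0.26 (-0.61 to 0.085) and *Acad8*, of valine breakdown, at 0.14 (-0.078 to 0.36). Without the third HET and KO libraries the median was 0.082 (18 positive, 6 negative) and *Mmachc* had -0.11.

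Among the 12 genes tested for fatty acid synthesis, 11 had a positive and 1 a negative HET log2FC, with a median of 0.12 beside -0.0027 over all genes, and without the third HET and KO libraries the median was 0.066 (10 positive, 2 negative). *Acss2*, which makes acetyl-CoA from acetate, had the smallest HET p of the 85 pathway genes. It stood at 1668, 1731 and 1802 in WT and at 1961, 1852 and 2135 in HET, with no overlap. Its log2FC was 0.19 (-0.023 to 0.41, exact permutation p = 0.1), a description of a gene picked on this contrast. Among pathway genes, overlap was read only for those named, which were picked by a small HET p. Of these, *Acad8* and the lipoyl transferase *Lipt2* of other lists also had no overlap between HET and WT. The share over all genes tested was 4.45%, but those genes were not picked in this way, so the 2 cannot be compared. *Thrsp*, a lipogenic regulator, had 0.35 (-0.18 to 0.87), with overlapping libraries. Of the oligodendrocyte markers, 7 of 7 likewise had positive HET values (median 0.33), with summed levels of 155100 to 254800 in WT and 217700 to 246700 in HET. The third WT library, at 254800, lay above every HET library. The first and second WT libraries, at 164800 and 155100, lay below every HET library. Of these markers 0 of 7 had an unadjusted limma p under 0.05, where 1.11% of all genes did. The part of these markers in the list was not tested.

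The other lists had HET medians between -0.098 and 0.055. Pyruvate use and anaplerosis (20 genes tested) had a median log2FC of 0.019 (13 positive, 7 negative), with *Mpc1* of the mitochondrial pyruvate carrier at 0.15 (-0.17 to 0.48) and the kinase *Pdk4* at 0.23 (-0.37 to 0.82). Thiamine handling and use (13 genes) had 0.055 (10 positive, 3 negative), with *Ogdhl* at 0.14 (-0.15 to 0.43) and transketolase, *Tkt*, at 0.16 (-0.19 to 0.50). Pantothenate and coenzyme A (9 genes), whose vitamin also enters through *Slc5a6*, had -0.024 (3 positive, 6 negative), with *Ppcdc* at 0.15 (-0.11 to 0.41) and the kinase *Pank2* at -0.11 (-0.33 to 0.11). Lipoate (10 genes), the third cargo of the transporter, had 0.033 (7 positive, 3 negative), with the lipoyl transferase *Lipt2* at 0.29 (-0.096 to 0.68) and the lipoyl carrier *Gcsh* at 0.17 (-0.15 to 0.50). The 4 tested relatives of the SLC5 family had -0.098 (0 positive, 4 negative), with the iodide transporter *Slc5a5* at -0.20 (-0.68 to 0.28) and *Slc5a11* at -0.14 (-1.02 to 0.74).

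Several of these values rested on the third HET and KO libraries. With both left out, the HET log2FC was 0.022 for *Mpc1*, 0.11 for *Pdk4*, 0.028 for *Ogdhl*, 7.8e-05 for *Tkt* and 0.044 for *Gcsh*. For the genes of coenzyme A it was 0.094 for *Ppcdc* and -0.054 for *Pank2*, and for the SLC5 relatives 0.067 for *Slc5a5* and -0.41 (-1.21 to 0.39) for *Slc5a11*. The list medians were then -0.021 for pyruvate use (7 positive, 13 negative), -0.031 for thiamine (4 positive, 9 negative), 0.017 for pantothenate and coenzyme A (6 positive, 3 negative), 0.027 for lipoate (6 positive, 4 negative) and 0.044 for the SLC5 relatives (3 positive, 1 negative). The signs of the pyruvate, thiamine, coenzyme A and SLC5 medians thus changed with those libraries.

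**Figure D4:**
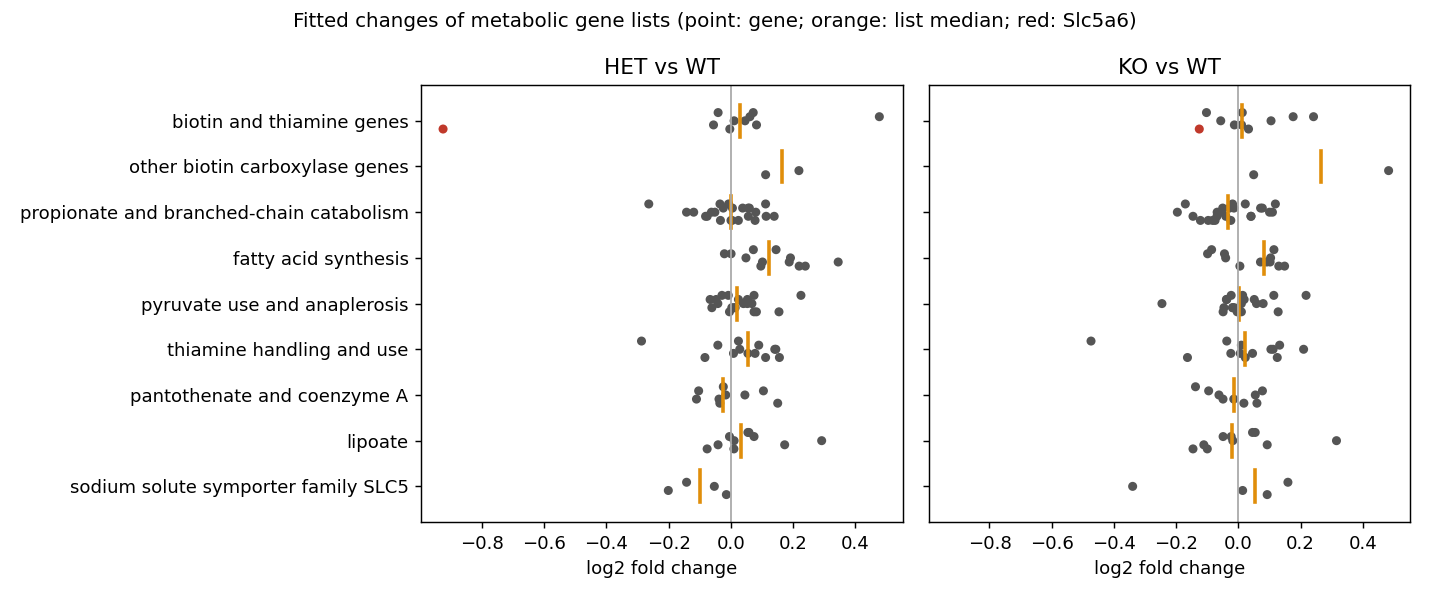
Log2FC of the tested genes of each pathway list (points) in HET vs WT and KO vs WT, by list, with the members on top (*Slc5a6* in red) and the list median in orange. Medians of the pathway lists in HET run from -0.098 for the SLC5 family to 0.17 for the remaining carboxylase genes, and the fatty acid synthesis list has 11 of 12 genes above 0 with all libraries and 10 of 12 without the third HET and KO libraries. Without those libraries the SLC5 median was 0.044 and that of the remaining carboxylase genes 0.10.

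The genes whose pattern was most like *Slc5a6* were found by the smallest root mean square difference between centred log2 profiles over the 9 libraries. They were *Nyx* (0.24), *Zc3h12a* (0.24), *Dclre1a* (0.25), *Shroom4* (0.28) and *Slc25a53* (0.28), where the median over all genes was 0.47 and the profile of *Slc5a6* itself had a spread of 0.43. *Slc25a53*, a mitochondrial carrier family member on chromosome X, stood at 558.5, 535 and 459 in WT, at 402, 389 and 413 in HET and at 528, 449 and 603 in KO. Its HET libraries lay below all others, with a HET log2FC of -0.36. The same order held for *Nyx*, *Zc3h12a* and *Shroom4*, but not for *Dclre1a*. *Nyx* was low throughout, at 15.4 to 28.3 normalised counts. These genes were selected on the same libraries, so their HET values are a description with no test.

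Markers of other cell types were read beside the members. The 13 tested endothelium and pericyte markers, cells of the blood-brain barrier where the transporter is known to act, summed to 15880 to 16520 in WT, 16230 to 19240 in HET and 16370 to 17050 in KO, with 12 of 13 positive HET values and a median log2FC of 0.13. All 11 medium spiny neuron markers had negative log2FC values in KO (median -0.27), with a median of 0.022 in HET. The medians in HET were 0.15 for 7 astrocyte, 0.027 for 6 microglia, -0.044 for 6 cortical neuron and -0.098 for 5 choroid plexus markers. Without the third HET and KO libraries the medium spiny neuron median was -0.13 in KO (9 of 11 negative) and 0.053 in HET. The HET medians were then 0.056 for endothelium and pericyte (10 of 13 positive), 0.069 for astrocyte, 0.048 for microglia, 0.33 for oligodendrocyte and 0.19 for choroid plexus markers. With all libraries no marker had a limma p under 0.05 (unadjusted) in the comparisons, where 0.822% to 1.31% of all genes did. The part of the markers in the *Slc5a6* values was not tested.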

How the data were processed

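RNA-seq libraries (TruSeq stranded mRNA, 1 per mouse) were made from the striatum of 3 WT, 3 HET and 3 KO mice. The authors quantified transcripts with Salmon 0.9.1 on GRCm38 with GC bias correction, imported gene-level counts with tximport into R 3.6.0 and divided them by DESeq2 1.19.11 size factors, and the deposited values are this normalised signal (normalised counts, which are not whole reads). No count model was run for that reason, and 0 columns were left unused. Symbols and positions came from GENCODE M21 (15457 of 15464 genes matched).

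Genes with at least 10 normalised counts in at least 3 libraries were fitted as log2(value + 1) in 1 limma (3.58.1, R 4.3.3) model with a variance trend over all 9 libraries, and p-values were adjusted by Benjamini-Hochberg over the 14239 genes. The log2 scale with a pseudocount of 1 understates changes of low genes. Single genes were also compared by exact two-sided permutation over mice. The fitting code was tested on simulated data.

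The members and lists were chosen with earlier results of these data known, so the tests of the members are not independent of those results. Named genes were the members, the 2 genes with the smallest HET p in each pathway list, the genes within 100 kb of *Slc5a6*, the 5 most alike to it and *Shank3*. Levels between genes were divided by the longest APPRIS principal transcript.

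Replicate numbers occur in every genotype, but the labels do not say what they mark. For HET against KO, deviations from the group means correlated at 0.52, 0.28 and 0.51 between equal numbers, and these were taken as paired from the data. Those of WT with HET (0.32, -0.014 and 0.0054) and with KO (0.24, -0.22 and 0.024) were not. Unequal numbers were not compared, and the part of the third HET and KO libraries in these correlations was not tested. The main fit and the permutation tests treated all libraries as unpaired, so p-values of KO relative to HET ignore any pairing. A replicate block, used as an alternative only, covered the WT libraries as well. Alternatives were other pseudocounts, filters, scalings and variance settings, a replicate block and libraries left out.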

Additional observations from a re-analysis of the deposited data

How the results depend on the processing

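*Slc5a6* kept its sign in HET relative to WT and in KO relative to HET under all 20 alternatives. Because every HET library lay below every WT and KO library, leaving libraries out could not have changed these signs. The kept signs are therefore no test of the value the gene was chosen on. With 3 mice per genotype and unknown read depth, the intervals of the other 9 genes still hold moderate changes in both directions, and no library count of reads could be used. In all 3 comparisons 0 genes passed an adjusted p of 0.05 in limma under every alternative. The count of the 9 genes at an unadjusted p under 0.05 was 0 throughout, except that it ranged from 0 to 1 in HET when single libraries were left out (*Pcca*, without HET replicate 2).

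With the replicate block, genes at an unadjusted p under 0.05 numbered 365 in HET (158 without it), 310 in KO relative to WT (117) and 318 in KO relative to HET (186), and the *Slc5a6* HET log2FC was -0.92. Only HET and KO libraries were taken as paired, although the block covered the WT libraries too, and the block changed no call of a member. The unadjusted counts ranged from 119 to 394 in HET, 72 to 292 in KO and 141 to 303 in KO relative to HET with single libraries left out. Without the third HET and KO libraries they were 275, 219 and 227. Of the other settings, array weights gave 395 in KO relative to WT, no variance trend gave 176 there, and a mean of at least 50 gave 74.

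Of 600 member values recomputed, 550 kept their sign and 50 changed sign. Several settings leave the log2FC itself as it was, so their signs could not change. A kept sign does not mean a kept size, as for *Pcca* in HET, at 0.48 with all libraries and 0.10 without the third HET and KO libraries. With array weights the log2FC was -0.012 for *Acaca*, -0.0013 for *Hlcs* and 0.073 for *Mccc1* in HET, -0.043 for *Pccb* and -0.043 for *Pcx* in KO, and -0.047 for *Btd* in KO relative to HET. Without the third HET and KO libraries it was -0.067 for *Acaca*, 0.044 for *Mccc1* and -0.057 for *Slc19a2* in HET, -0.063 for *Pccb* and -0.052 for *Pcx* in KO, and -0.10 for *Btd* in KO relative to HET. As an alternative chosen after seeing the data, the neighbours and pathway genes were also refitted without those libraries. Single signs were compared for the named pathway genes and tested neighbours in HET, and for *Acacb* and *Atraid* in KO. Among these the sign changed for *Slc5a5* (0.067) and *Mpv17* (-0.0042) in HET and for *Atraid* (0.038) in KO. Unnamed pathway genes changed sign too, as the counts of positive and negative values per list show. In that fit *Slc25a1* and *Slc5a11*, of the 85 pathway genes, had an unadjusted limma p under 0.05 in KO relative to HET. The microglia marker *C1qa* did in HET. Of all 14239 genes, 227 did in KO relative to HET and 275 in HET, so these calls are not read as results about the lists. The cause of these sign changes was not tested.

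With single libraries left out, the log2FC that changed sign ranged in HET relative to WT from -0.067 to 0.13 for *Acaca*, -0.18 to 0.034 for *Btd*, -0.082 to 0.10 for *Hlcs*, -0.13 to 0.079 for *Mccc1*, -0.15 to 0.048 for *Pccb*, -0.057 to 0.19 for *Slc19a2* and -0.065 to 0.14 for *Slc19a3*. For KO relative to WT the ranges were -0.13 to 0.12 for *Btd*, -0.15 to 0.058 for *Hlcs*, -0.044 to 0.11 for *Mccc1*, -0.063 to 0.061 for *Pccb*, -0.052 to 0.066 for *Pcx* and -0.21 to 0.00014 for *Slc5a6* (the highest without KO replicate 1). For KO relative to HET the ranges were -0.022 to 0.17 for *Acaca*, -0.055 to 0.17 for *Btd*, -0.16 to 0.047 for *Hlcs*, -0.047 to 0.17 for *Mccc1*, -0.48 to 0.14 for *Pcca*, -0.036 to 0.16 for *Pccb*, -0.14 to 0.0069 for *Pcx* and -0.048 to 0.23 for *Slc19a2*.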
